A study of Mus musculus with 8 samples.

Results

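The tumour necrosis factor (TNF) superfamily was followed across hepatic macrophages of mice with acetaminophen-induced liver injury. Members were the genes whose symbol starts with Tnfsf or Tnfrsf and a digit, together with Fas, Fasl, Lta, Ltb, Ltbr, Cd27 and Cd70, on array rows annotated with exactly 1 gene. This gave 36 genes of 22180 tested, 13 ligands and 23 receptors, each measured by 1 such row. Tnfsf12 and Tnfsf13 lie on a row that several genes share and were not analysed here. Tnf itself is outside the symbol rule and is described with the signalling genes.

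All samples came from male FVB/N mice aged 8 weeks that received 350 mg/kg acetaminophen into the peritoneum. A recombinant protein went into the tail vein 12 h earlier. The controls (rTF) received 25 µg transferrin, the iron carrier of plasma, and the treated group (rCPS1) 50 µg carbamoyl phosphate synthetase 1, a urea cycle enzyme of hepatocyte mitochondria, so protein and amount differ together. There were 4 arrays in each group, 8 in all. Every title carries the name Mouse1, so whether replicates are separate animals is not settled, and the p-values cover no more than the scatter of these samples, possibly a technical one.

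Levels are log2 values from the authors' RMA normalization, and array medians ran from 3.55 to 3.68. All 9 Kupffer cell markers (such as Adgre1 and Clec4f) lay above the median array row of 3.60, but so did all 7 sinusoidal endothelial and all 6 hepatocyte markers. Of all 22180 genes, 12384 lay above it. The mean log2 level with rTF was 9.67 for the Kupffer cell, 11.54 for the endothelial and 7.54 for the hepatocyte markers, which gives no share of cells. Transcripts typical of other liver cells were thus measured beside those of macrophages. In such bulk RNA, fewer cells of a type and less RNA per cell cannot be told apart. With rCPS1 all 8 neutrophil markers and all 7 monocyte markers were lower, with differences in the mean log2 level of -1.24 and -0.75. At an unadjusted p under 0.05 were 8 of 8 and 6 of 7 of them, beside 4.67% of all genes, and the groups did not overlap for 6 and 4, beside 2.92%. The adjusted threshold of 0.05 was passed by 0 of these markers and by 0 of all 22180 genes. Their part in the differences described below was not tested.

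TNF ligands are mostly trimeric membrane proteins, some of which are shed, and each binds 1 or a few receptors. Receptors with a death domain can recruit FADD and caspase 8 and kill the cell. Others bind TRAF adaptors and switch on NF-kappaB, and decoy receptors bind ligand without a full signal. In the injured liver, TNF, FAS and TRAIL are studied for their part in hepatocyte death, while the receptors CD27 and GITR are best known from lymphocytes.

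No member changed with rCPS1 at the threshold used, an adjusted p under 0.05 in limma's moderated test with Benjamini-Hochberg adjustment over all genes. This threshold called 0% of the 22180 genes, and the members' adjusted p ran from 0.98 to 0.999. At an unadjusted p under 0.05 the count was 1 of 36 members, Tnfsf14, against 4.67% of all genes (1035 of 22180). Tnfsf14 was lower with rCPS1, as were 2.79% of all genes at this p, while 0 members and 1.88% of all genes were higher. For 0 of 36 members were the groups free of overlap, against 2.92% of all genes. Differences ran from -0.65 (Tnfsf14) to 0.48 (Tnfsf10) on the log2 scale, written throughout as rCPS1 minus rTF. The difference was below 0 for 22 members and above 0 for 14, so 61.1% were lower, beside 54.4% of all genes.

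Ligands and receptors had like medians. The median log2 difference was -0.081 over the 13 ligands and -0.073 over the 23 receptors, beside -0.018 over all genes. The difference was below 0 for 9 of 13 ligands and for 13 of 23 receptors. The median standard error of a member's difference was 0.19, against 0.15 over all genes. The 95% interval of the difference lay within 0.5 of 0 on the log2 scale for 11 of 36 members and within 1 of 0 for 31. For most members the arrays therefore leave room for a difference of 0.5 in at least 1 direction.

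**Figure D1:**
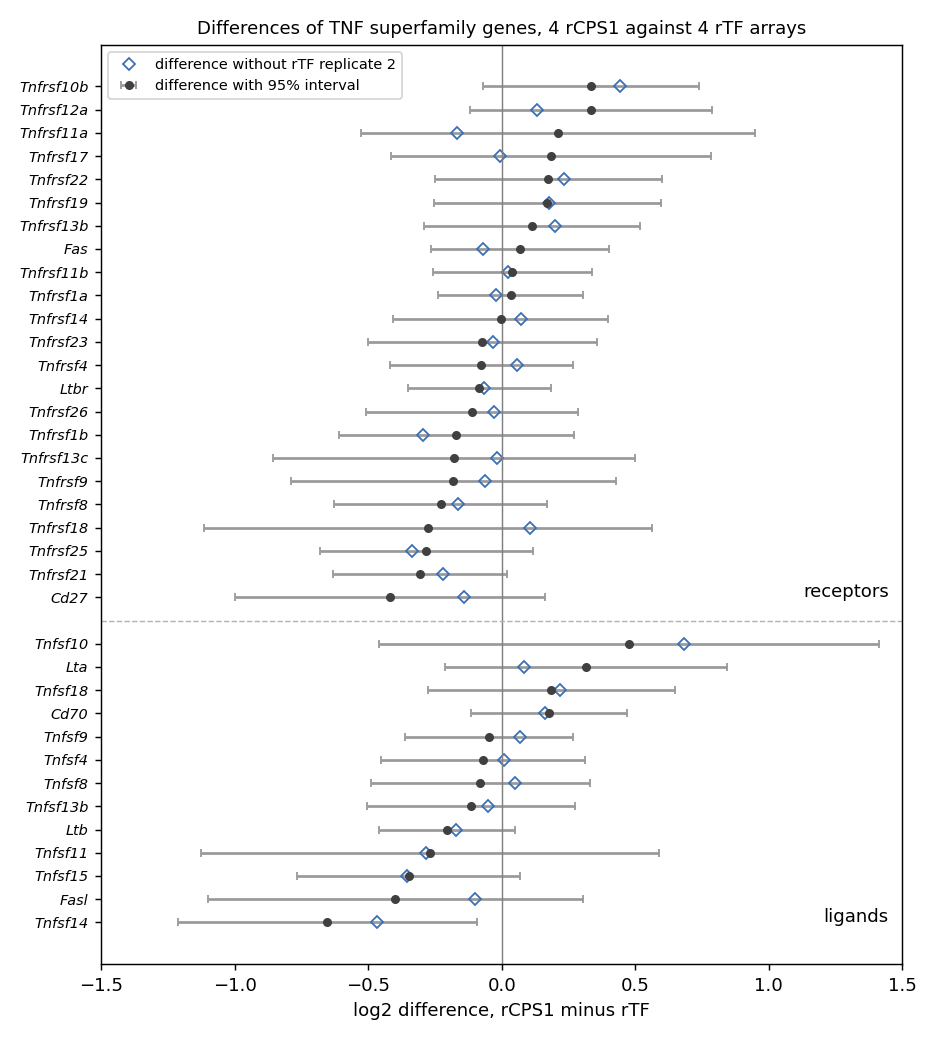
Log2 differences (x axis, rCPS1 minus rTF) of the 13 ligands and 23 receptors with their 95% limma intervals (bars, 4 against 4 arrays), and the same difference without rTF replicate 2 (open diamonds). The interval of Tnfsf14, from -1.21 to -0.093, is the single one that leaves out 0, and the diamonds of Cd27, Fasl, Tnfrsf18 and Tnfrsf11a lie furthest from their points towards or across 0.

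Among the ligands, Tnfsf14 (probe set 17346522) had the largest difference. It encodes LIGHT, a ligand of activated T cells and myeloid cells that binds the receptors encoded by Ltbr and Tnfrsf14. Its log2 level was 5.55, 6.63, 5.68 and 6.44 in rTF replicates 1 to 4 and 5.06, 5.44, 5.69 and 5.49 in rCPS1 replicates 1 to 4. The high values were in rTF replicates 2 and 4, and rCPS1 replicate 3 overlapped the other rTF arrays. The mean was 6.07 ± 0.54 with rTF and 5.42 ± 0.26 with rCPS1 (SD, n = 4 each), which differed by -0.65 ± 0.25 (SE), 1.57-fold lower, with an unadjusted p of 0.0265 and an adjusted p of 0.98 in limma. The limma unadjusted p was 0.0776 without rTF replicate 2, 0.0767 without rTF replicate 4 and 0.0771 without rCPS1 replicate 1. The receptor genes had differences near 0: Ltbr differed by -0.084 ± 0.12 (95% interval -0.35 to 0.18) and Tnfrsf14 by -0.0043 ± 0.18 (-0.41 to 0.40).

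The promoter window of Tnfsf14 is shown because this ligand had the smallest p of the family. It runs from 250 bases before to 50 after the RefSeq start site (GRCm38.p6, chr17:57194132-57194431, minus strand, 5′ to 3′). Capitals mark matches to letters of an AP-1 motif (TGANTCA, which reads alike on both strands) at base 91 and of a RUNX motif (TGTGGT, forward strand) at base 287, counted from 1 at the window's first base.
Tnfsf14: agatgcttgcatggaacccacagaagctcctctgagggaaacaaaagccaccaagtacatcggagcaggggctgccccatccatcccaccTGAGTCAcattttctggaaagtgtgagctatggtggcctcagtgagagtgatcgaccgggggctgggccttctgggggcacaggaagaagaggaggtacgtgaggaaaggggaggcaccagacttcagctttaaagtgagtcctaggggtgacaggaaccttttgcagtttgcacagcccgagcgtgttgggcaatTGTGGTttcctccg
The AP-1 letters occur in 7.81% and the RUNX letters in 16.8% of the 32851 RefSeq promoter windows of this length, both strands searched. Such a match is a description of the letters and does not show a bound factor.

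Tnfsf15 (17426348) encodes TL1A, the ligand of the death-domain receptor encoded by Tnfrsf25. Its level was 5.49, 5.25, 5.24 and 5.09 in the rTF arrays and 5.03, 4.55, 4.69 and 5.42 in the rCPS1 arrays. All rCPS1 arrays but replicate 4 lay below every rTF array. The difference was -0.35 ± 0.19 (SE; limma unadjusted p = 0.0932). Without rCPS1 replicate 4 it was -0.51, and as this was the array that overlapped, no overlap could remain. Without rCPS1 replicate 2, the lowest array, it was -0.23 (limma unadjusted p = 0.253). Tnfrsf25 was also lower, by -0.28 ± 0.18, but its mean level of 3.42 lay below the median array row.

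Neither lymphotoxin gene passed the threshold. Ltb (17337024) forms with Lta the membrane lymphotoxin that binds the receptor encoded by Ltbr. Its level was 7.63, 7.91, 7.82 and 7.90 with rTF and 7.76, 7.56, 7.62 and 7.50 with rCPS1, which differed in the mean by -0.20 ± 0.11 (SE; limma unadjusted p = 0.103). The overlap came from rTF replicate 1 and rCPS1 replicate 1. Lta (17344316), whose product is also secreted as a homotrimer, was at 4.53, 3.57, 4.70 and 4.28 with rTF and 4.47, 4.97, 4.52 and 4.38 with rCPS1. Its difference of 0.32 ± 0.24 (limma unadjusted p = 0.213) was 0.082 without the low rTF replicate 2.

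The genes of 2 ligands that kill through death receptors spread widely over the arrays. Tnfsf10 (17396383) encodes TRAIL, and its level was 6.67, 8.08, 7.04 and 8.05 with rTF and 8.42, 6.88, 7.84 and 8.61 with rCPS1. Low and high arrays occurred in both groups, with a range of 1.94 over the 8 arrays, and the difference was 0.48 ± 0.42 (SE; 95% interval -0.46 to 1.41). Fasl (17228864), the ligand by which cytotoxic lymphocytes trigger FAS, was at 5.18, 6.63, 5.30 and 5.81 with rTF and 5.40, 5.16, 5.88 and 4.90 with rCPS1. A single array, rTF replicate 2, lay above all others. Its difference of -0.40 ± 0.32 was -0.099 without that array.

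Tnfsf13b (17498897) encodes BAFF, a survival factor of B cells made by myeloid cells. Its level was 4.34, 4.80, 4.56 and 4.73 with rTF and 4.30, 4.65, 4.86 and 4.15 with rCPS1, so the groups overlapped over nearly their whole range, and the difference was -0.11 ± 0.17 (SE; 95% interval -0.50 to 0.27). Cd70 (17346516), the ligand of CD27, was the dimmest member, with mean levels of 1.37 ± 0.084 with rTF and 1.55 ± 0.23 with rCPS1 (SD, n = 4 each), far below the median array row. Its difference was 0.18 ± 0.13 (SE), and the groups overlapped. The costimulatory ligand genes Tnfsf4 (OX40 ligand), Tnfsf8 (CD30 ligand) and Tnfsf9 differed by -0.071, -0.081 and -0.049. Tnfsf18 (GITR ligand) differed by 0.19 and Tnfsf11 (RANKL, the osteoclast differentiation factor) by -0.27. The rows of Tnfsf8, Tnfsf18 and Tnfsf11 lay below the median. Tnfsf11 ran from 1.89 to 4.07 within the rTF arrays alone.

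**Figure D2:**
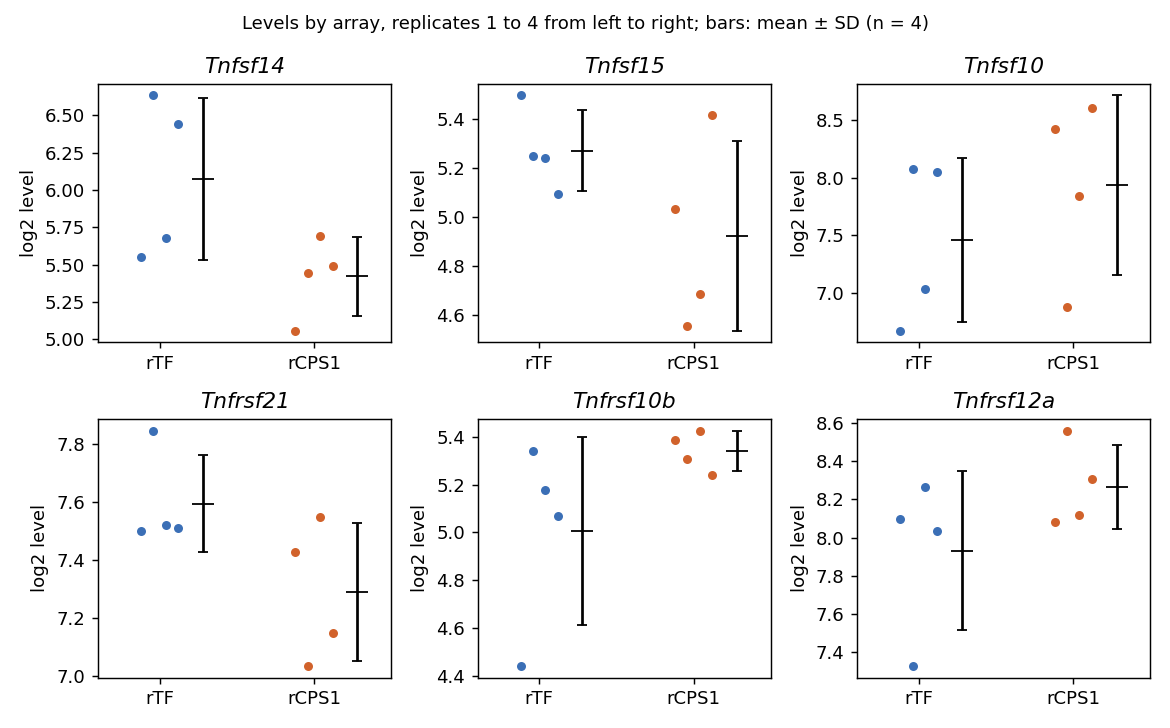
Log2 levels (y axis, which does not start at 0) of 3 ligands and 3 receptors on each array, with the mean ± SD of each group (n = 4). In every panel at least 1 array of 1 group lies within the range of the other, as rCPS1 replicate 3 does for Tnfrsf21 (7.55) and rTF replicate 2 for Tnfrsf10b (5.34).

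Among the death-domain receptors, Tnfrsf21 (17337741) had the smallest p. It encodes DR6, a death receptor studied in neurons and T cells. Its level was 7.50, 7.85, 7.52 and 7.51 with rTF and 7.43, 7.04, 7.55 and 7.15 with rCPS1. Of the rCPS1 arrays, replicate 3 alone reached the rTF range. The mean was 7.60 ± 0.17 with rTF and 7.29 ± 0.24 with rCPS1 (SD, n = 4 each), which differed by -0.30 ± 0.15 (SE; limma unadjusted p = 0.0641, adjusted p = 0.98). Without rCPS1 replicate 3 it was -0.39, and as this was the array that overlapped, no overlap could remain. Without rTF replicate 2, the highest array, it was -0.22 (limma unadjusted p = 0.165).

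Tnfrsf10b (17301697) encodes the death receptor for TRAIL of the mouse. Its level was 4.44, 5.34, 5.18 and 5.07 with rTF and 5.39, 5.31, 5.43 and 5.24 with rCPS1. The rCPS1 arrays lay close together, and rTF replicate 2 alone reached into their range. The mean was 5.01 ± 0.39 with rTF and 5.34 ± 0.082 with rCPS1, and these differed by 0.33 ± 0.18 (SE; limma unadjusted p = 0.0954). It was 0.44 without rTF replicate 2 and 0.15 without rTF replicate 1, the lowest array. Ligand and receptor of the TRAIL pair were thus both higher in the mean with rCPS1, neither past the threshold.

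Fas and Tnfrsf1a had differences near 0. Fas (17358797), the receptor for FAS ligand, was at 8.82, 8.13, 8.65 and 8.60 with rTF and 8.61, 8.69, 8.66 and 8.52 with rCPS1. All arrays but rTF replicate 2 lay between 8.52 and 8.82, and the difference was 0.069 ± 0.15 (SE; 95% interval -0.26 to 0.40), turning to -0.070 without that array. Tnfrsf1a (17463184), the death-domain receptor for TNF found on most cells, was at 9.80, 9.62, 9.84 and 9.88 with rTF and 9.80, 10.04, 9.63 and 9.80 with rCPS1. Its difference was 0.033 ± 0.12 (-0.24 to 0.30), and it turned below 0 when arrays were centred on their medians (-0.0068) or rTF replicate 2 (-0.020) or rCPS1 replicate 2 (-0.040) was left out. The interval leaves out a change of 0.5 in either direction for both genes.

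Tnfrsf1b (17432674), the TRAF-binding receptor for TNF on leukocytes, was at 11.12, 10.16, 10.51 and 10.38 with rTF and 10.18, 10.63, 10.34 and 10.34 with rCPS1. Its highest and lowest arrays were both rTF arrays, replicates 1 and 2. The difference was -0.17 ± 0.20 (SE; 95% interval -0.61 to 0.27), and 0.022 without rTF replicate 1. Ltbr (17471094) stayed within 0.38 over the 8 arrays, at 7.90, 8.05, 8.13 and 7.92 with rTF and 7.94, 8.13, 7.75 and 7.83 with rCPS1.

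Tnfrsf12a (17341540) encodes Fn14, the receptor for TWEAK, which is induced in injured tissue. Its level was 8.10, 7.33, 8.27 and 8.04 with rTF and 8.08, 8.56, 8.12 and 8.31 with rCPS1. The low array was again rTF replicate 2, and the other rTF arrays overlapped the rCPS1 arrays. The difference was 0.33 ± 0.20 (SE; limma unadjusted p = 0.133), and 0.13 without that array. The gene of the ligand, Tnfsf12, is on the shared row named above.

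Cd27 (17471073), a costimulatory receptor of T, NK and B cells, had the largest difference of any receptor. It was at 5.62, 7.00, 5.92 and 6.15 with rTF and 5.97, 5.54, 5.90 and 5.62 with rCPS1. The value of rTF replicate 2 stood above the rest, and the remaining arrays overlapped. The difference was -0.42 ± 0.26 (SE; limma unadjusted p = 0.14), and -0.14 without that array. Tnfrsf8 (17432687), which encodes the activation antigen CD30 of lymphocytes, was at 4.50, 4.50, 4.08 and 4.13 with rTF and 4.19, 4.46, 3.71 and 3.95 with rCPS1. The groups overlapped, and its difference was -0.23 ± 0.18.

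The other TRAF-binding receptors differed by less than 0.3. The T cell costimulatory receptor genes Tnfrsf4 (OX40), Tnfrsf9 and Tnfrsf18 (GITR) differed by -0.077, -0.18 and -0.27. Without rTF replicate 2, Tnfrsf4 and Tnfrsf18 were at 0.056 and 0.11. The BAFF receptor genes of B cells gave -0.18 for Tnfrsf13c, 0.11 for Tnfrsf13b (TACI) and 0.19 for Tnfrsf17 (BCMA), the last 2 on rows below the median. Tnfrsf11a encodes RANK, the receptor of RANKL, and was lowest in rTF replicate 2 (6.50), while rTF replicates 1, 3 and 4 lay at 7.86 to 8.24. Its difference of 0.21 ± 0.33 (SE) was -0.17 without that array. Tnfrsf19 (TROY) differed by 0.17 on a dim row.

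The decoy receptors differed by at most 0.18. Tnfrsf11b encodes osteoprotegerin, the secreted decoy for RANKL, and differed by 0.040 ± 0.13 (SE). The mouse TRAIL decoy genes Tnfrsf22 and Tnfrsf23 differed by 0.18 and -0.073, and Tnfrsf26, a relative without a settled ligand, by -0.11. The last 3 genes are closely related in sequence, and probes of 1 may also read another, which makes their values uncertain.

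A single rTF array held the extreme value of many members. In 18 of 36 members, rTF replicate 2 held the highest (11) or the lowest (7) of the 8 values, or 50% of members, beside 34.2% of all genes. It was highest for Tnfsf14, Tnfrsf21, Ltb, Cd27, Fasl, Tnfrsf18, Tnfrsf13c, Tnfrsf4, Tnfsf8, Tnfsf4 and Tnfsf9. It was lowest for Tnfrsf12a, Lta, Tnfrsf1b, Tnfrsf17, Tnfrsf11a, Fas and Tnfrsf1a. Leaving that array out turned the sign of 10 of 36 differences, or 27.8%, beside 14.2% over all genes. Leaving out any other single array turned 0 to 3 of the 36, or 0% to 8.33%, beside 9.23% to 13.7% of all genes.

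**Figure D3:**
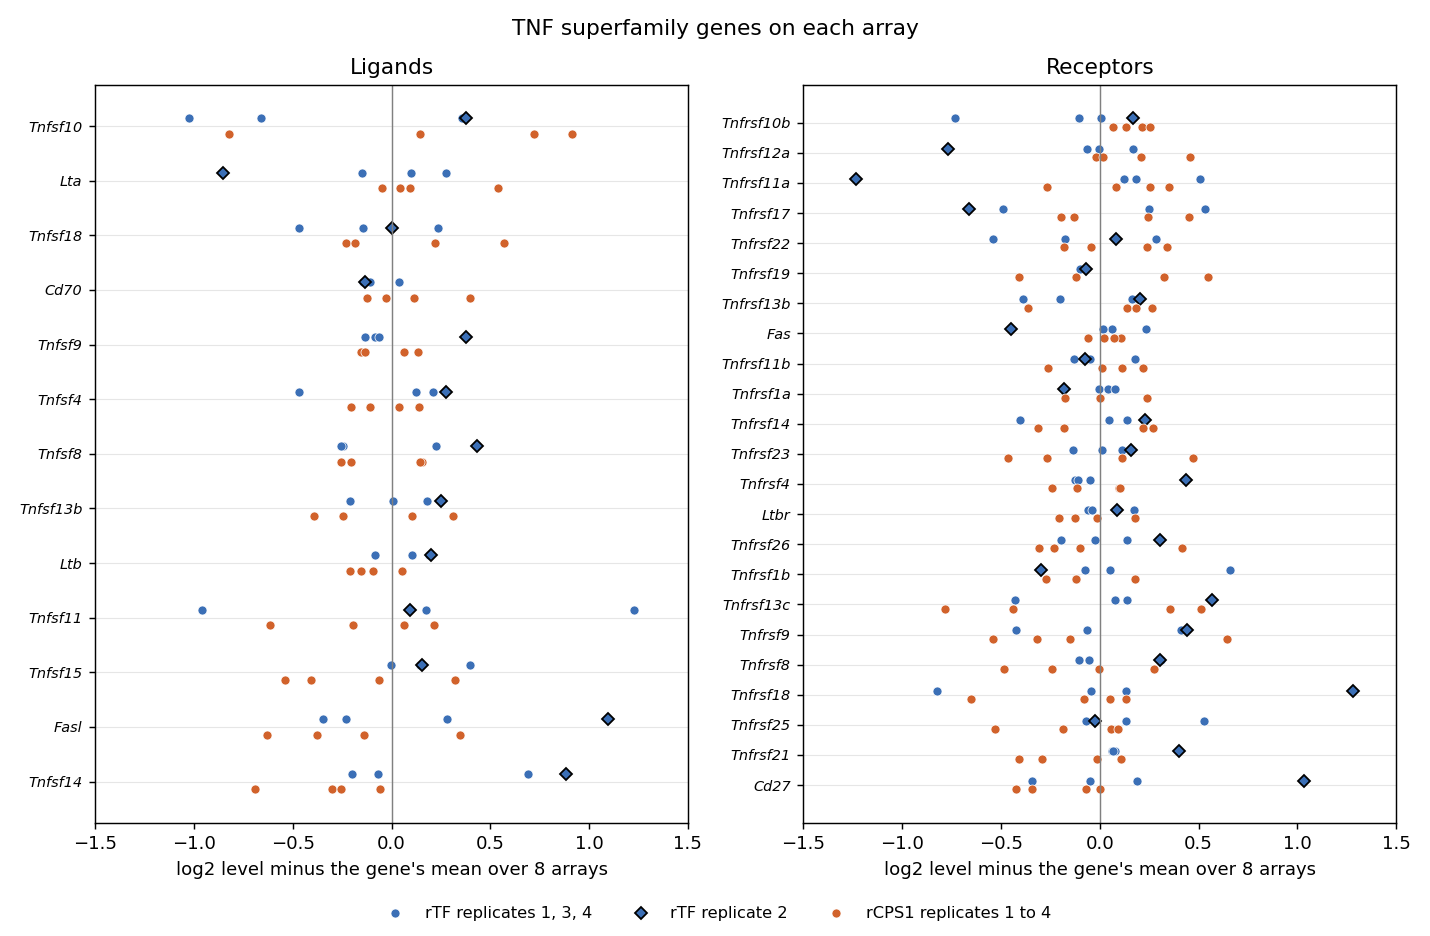
Log2 level of each member on each array minus that gene's mean over the 8 arrays (x axis), for 13 ligands and 23 receptors ordered by their difference. Diamonds mark rTF replicate 2, which lies at an end of the range in 18 of 36 members, and the rTF and rCPS1 points overlap in every row.

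The members linked to lymphocytes by textbook knowledge numbered 16 of the 36, among them Cd27, Fasl, Tnfsf14, Tnfrsf18, Ltb and the BAFF receptors. Of these, 12 were lower with rCPS1 and 4 higher, so 75% were lower, beside 54.4% of all genes. Their median log2 difference was -0.19, beside -0.018 over all genes. The other 20 members were evenly split, 10 lower and 10 higher, with a median of 0.015. In rTF replicate 2, 8 of the 16 had their highest value, as did 3 of the other 20 members and 19.9% of all genes. Without that array the median of the 16 was -0.041, and 10 of them were lower, beside 11642 of all 22180 genes. Of the 16, 10 lay above the median array row, against 18 of the other 20, so the 2 groups also differ in level. The difference between these 2 groups of members was not tested.

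The mean levels of T and NK cell markers and of dendritic cell markers were highest in the same array, rTF replicate 2. It held the highest value of 10 of 11 T and NK cell markers but of only 2 of 5 dendritic cell markers, beside 19.9% of all genes. The mean log2 level of 11 T and NK cell markers, of which 10 lay above the median array row, was 7.12 in rTF replicate 2, from 5.79 to 6.17 in rTF replicates 1, 3 and 4, and 5.58 to 6.12 in the rCPS1 arrays. Their summed log2 level ran from 63.7 to 78.4 with rTF and from 61.4 to 67.3 with rCPS1. The marker below the median was Klrb1c. With rCPS1, 10 of the 11 T and NK cell markers were lower, beside 54.4% of all genes. The difference in their mean was -0.47, and -0.19 without rTF replicate 2. In rTF replicate 2 Tnfrsf18 stood at 7.46, while rTF replicates 1, 3 and 4 lay between 5.35 and 6.32. Cd27, Fasl and Tnfsf14 were at their highest there too. Of the 16 lymphocyte-linked members, 8 were highest in that array, and 2, Lta and Tnfrsf17, were lowest. B cell markers did not follow this order, with a mean of 5.83 in rTF replicate 2, inside the range of 5.09 to 6.11 of the rTF group. All 7 B cell markers were higher with rCPS1, by 0.15 in the mean, beside 10123 of all 22180 genes. Of the 7, 2 kept that sign whichever array was left out. Dendritic cell markers (5 genes, all above the median array row and all lower with rCPS1) had a mean of 6.74 in rTF replicate 2, of at most 6.45 in rTF replicates 1, 3 and 4, and of 6.10 to 6.17 with rCPS1. Their summed log2 level ran from 30.0 to 33.7 with rTF and from 30.5 to 30.9 with rCPS1. The part of lymphocyte or dendritic cell content in the differences of these members was not tested.

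**Figure D4:**
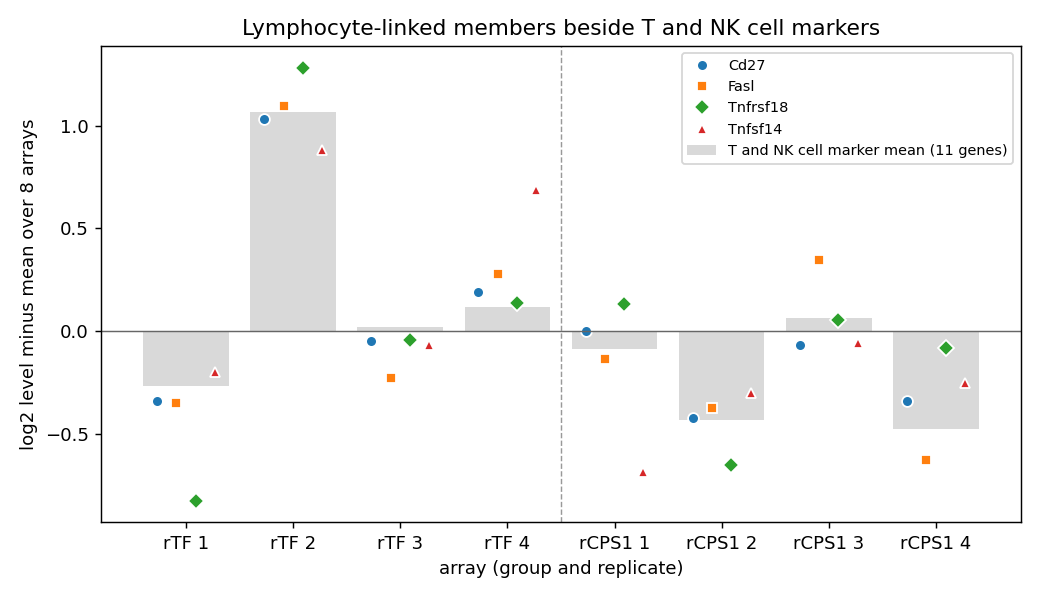
Log2 level minus the mean over the 8 arrays (y axis) of Cd27, Fasl, Tnfrsf18 and Tnfsf14 (symbols) and of the mean of 11 T and NK cell markers (grey bars), by array. In rTF replicate 2 all 4 genes and the marker mean are at their highest, and Tnfsf14 is also high in rTF replicate 4. The 4 genes were taken from the 8 of 16 lymphocyte-linked members that were highest in rTF replicate 2. Their shared peak thus follows from the choice, and Lta and Tnfrsf17, also of the 16, were lowest there.

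The promoter windows of Cd27, Fasl and Tnfrsf18 are shown because these genes, like Tnfsf14, had their highest value in rTF replicate 2. Whether their levels vary together over the other arrays was not tested. Windows are from RefSeq (GRCm38.p6, 250 bases before to 50 after the start site, 5′ to 3′). They lie at chr6:125236978-125237277 on the minus strand for Cd27, chr1:161788446-161788745 on the minus strand for Fasl and chr4:156026072-156026371 on the plus strand for Tnfrsf18. None of the 3 holds the AP-1 or RUNX letters searched in Tnfsf14, so no base is in capitals, which says only that these letters are not in these windows.
Cd27: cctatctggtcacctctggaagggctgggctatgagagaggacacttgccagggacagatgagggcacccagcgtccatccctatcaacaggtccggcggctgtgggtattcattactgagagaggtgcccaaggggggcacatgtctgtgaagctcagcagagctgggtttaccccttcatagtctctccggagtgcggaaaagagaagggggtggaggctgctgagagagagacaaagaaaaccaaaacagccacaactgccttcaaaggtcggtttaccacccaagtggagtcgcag
Fasl: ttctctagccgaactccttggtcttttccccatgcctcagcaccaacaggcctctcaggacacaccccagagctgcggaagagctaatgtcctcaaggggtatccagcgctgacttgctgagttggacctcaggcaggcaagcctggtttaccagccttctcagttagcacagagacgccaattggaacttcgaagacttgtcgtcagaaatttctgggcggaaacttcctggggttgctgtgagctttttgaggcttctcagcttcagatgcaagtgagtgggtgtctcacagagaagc
Tnfrsf18: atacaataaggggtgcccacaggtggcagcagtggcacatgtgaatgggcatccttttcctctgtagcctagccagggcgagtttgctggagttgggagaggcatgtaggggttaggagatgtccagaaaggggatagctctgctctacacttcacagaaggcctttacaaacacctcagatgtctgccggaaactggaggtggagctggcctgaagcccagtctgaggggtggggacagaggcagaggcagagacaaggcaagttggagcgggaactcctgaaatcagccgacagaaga

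A fixed list of 45 further genes of the pathway, of which 41 were tested, held 31 tested adaptors and signalling genes, 8 ligands and receptors outside the symbol rule and 2 shedding proteases. At an unadjusted p under 0.05 there were 4 of 41 (3 of the 31 signalling genes), beside 4.67% of all genes. Of the 4, 3 were lower and 1 higher, beside 2.79% and 1.88% of all genes, and 0 passed the adjusted threshold, as for all genes. The list had 22 lower and 19 higher, with a median log2 difference of -0.0080. Tnf (17344309), the founding ligand and a product of activated macrophages, was at 10.58, 9.88, 9.95 and 10.06 with rTF and 10.57, 9.96, 9.65 and 10.23 with rCPS1. The groups overlapped, with the highest array from rTF and the lowest from rCPS1, and the difference was -0.022 ± 0.22 (SE; 95% interval -0.50 to 0.46). Its sign turned with array weights (0.029) and without rTF replicate 1 (0.13), rCPS1 replicate 2 (0.024) or rCPS1 replicate 3 (0.13).

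Fadd, the adaptor that links death domains to caspase 8, was at 6.44, 6.78, 6.44 and 6.45 with rTF and 6.29, 6.35, 6.09 and 6.17 with rCPS1. It was the single listed gene of 41 whose groups did not overlap, beside 2.92% of all genes, with a difference of -0.30 ± 0.12 (SE; limma unadjusted p = 0.0341, adjusted p = 0.98). Tab1, a partner of the kinase TAK1, differed by -0.45 ± 0.17 (unadjusted p = 0.0242). Mlkl, the pore-forming effector of necroptosis, differed by 0.36 ± 0.16 (0.0479). Ngfr, the neurotrophin receptor of this family, differed by -0.38 ± 0.17 (0.0494). Its mean level of 3.53 lay below the median array row of 3.60. Without rTF replicate 2 the unadjusted p was 0.0682 for Tab1, 0.087 for Fadd and 0.132 for Mlkl, and 0.0294 for Ngfr. With 1 array left out, each of the 4 missed 0.05 at least once, with a p of up to 0.072 for Tab1, 0.087 for Fadd, 0.132 for Mlkl and 0.143 for Ngfr. With array weights the p of Mlkl was 0.0931, and with the replicate block that of Ngfr was 0.0924. The next genes by p were Edar, the ectodysplasin receptor, at 0.32 ± 0.17 on a dim row, and Rbck1, a subunit of the linear ubiquitin ligase, at -0.23 ± 0.13. The shedding protease genes Adam10 and Adam17, the latter the main protease that releases TNF, differed by -0.019 and 0.050.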

How the data were processed

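Total RNA (400 ng per sample, Qiagen RNeasy, WT Plus labelling, per the labels' protocols) was measured on 8 Affymetrix arrays. The values are log2 expression levels that the authors deposited, made with RMA, per the submitters' processing notes, which also name limma. RMA includes quantile normalization, so a shift shared by nearly all genes cannot be seen. Macrophage isolation, time to collection, batches and genome build are not given in the sources used here.

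Of 41345 rows, 23521 had exactly 1 gene symbol. The row of highest mean per gene gave 22180 genes, with no filter on dim rows. All 36 members matched RefSeq by Entrez ID. The fit used limma 3.58.1 in R 4.3.3 (lmFit, eBayes, two-sided, no covariate, Benjamini-Hochberg over all genes) and was tested on simulated data. Members and lists were chosen with earlier results of these data known. Members named in full were the 6 ligands and 6 receptors of smallest p and a fixed set of TNF, FAS, TRAIL, TWEAK, BAFF and lymphotoxin genes. Other members are given by their difference, and of the signalling list the 6 of smallest p were named. The fitted intervals cover the spread between these arrays, and their number limits the precision. There were 17 alternatives: dim-row filter, trended or robust variance, array weights, replicate block, quantile or median scaling, mean of rows, all rows, and each array left out.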

Additional observations from a re-analysis of the deposited data

Results flagged for a closer look

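Dixon's ratio, the gap of an end value to its neighbour over the range of a group, was taken for the 36 members and 7 named signalling genes in both groups of 4 arrays. The ratio was above its 95% limit in 4 of 86 sets of values, where chance at 1 in 20 gives 4.3. All 4 were high values of rTF replicate 2. Tnfrsf21, the gene of DR6, was at 7.85 there, while the remaining rTF arrays lay from 7.50 to 7.52. Tnfrsf4, the gene of OX40, was at 5.48 (remaining arrays 4.92 to 4.99). Tnfsf9, a costimulatory ligand gene, was at 6.14 (5.63 to 5.70), and the adaptor gene Fadd at 6.78 (6.44 to 6.45).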

How the results depend on the processing

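Under all 17 alternatives, 0 members and 0 genes of the whole table passed the adjusted threshold in limma. As reported, 1 member and 1035 genes had an unadjusted p under 0.05. That count of members was 2 with median centring and ran from 0 to 3 with 1 array left out: 3 without rTF replicate 1 (Cd27, Ltb and Tnfsf14), 2 without rCPS1 replicate 2, 3 or 4, 0 without rTF replicate 4 or rCPS1 replicate 1, and 1 without rTF replicate 2, where it was Tnfrsf10b. Members whose groups did not overlap numbered 1 with median centring (Tnfrsf21) and 0 to 2 with 1 array left out. Those were Ltb without rTF replicate 1 or rCPS1 replicate 1, Tnfrsf10b without rTF replicate 2, Tnfsf15 without rCPS1 replicate 4, and Tnfrsf21 and Tnfsf14 without rCPS1 replicate 3. Leaving out an array can add genes without overlap but cannot remove any. The shares of all genes at these settings were not taken, so neither these counts nor those by unadjusted p have a background here. With 1 array left out, the median difference ran from -0.18 to 0.0086 for ligands, from -0.082 to 0.0021 for receptors and from -0.31 to -0.041 for the lymphocyte-linked members.

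Of the 25 genes named with a test, 4 turned sign with 1 array left out: Fas (-0.070 to 0.16), Tnfrsf1a (-0.040 to 0.097), Tnfrsf1b (-0.30 to 0.022) and Tnf (-0.18 to 0.13). Tnfrsf1a was also at -0.0068 with median centring and Tnf at 0.029 with array weights. The cause of these turns was not tested. Most of the 25 genes were chosen for a small p, which favours a kept sign. Of all 36 members, 21 kept their sign whichever array was left out, beside 12059 of all 22180 genes. Samples that share a replicate number showed no clear joint deviation across genes (r of -0.124, -0.033, -0.005 and 0.025 for replicates 1 to 4). Samples with unlike numbers had r from -0.158 to 0.194. With 4 arrays per group, this does not settle whether the numbers pair the samples. With the replicate block, 1 member (Tnfsf14, -0.65, limma unadjusted p = 0.0166) had an unadjusted p under 0.05 and 0 passed the adjusted threshold.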

Other observations

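RefSeq promoter windows (GRCm38.p6, 33 windows of 29 members) were searched on both strands for short motif letters chosen after the array values were known, with no test made. The AP-1 letters TGANTCA were in those of Fas, Tnfrsf8, Tnfrsf9, Tnfsf13b and Tnfsf14, or 18.2% of member windows beside 7.81% of all windows. The RUNX letters TGTGGT were in those of Tnfrsf13c, Tnfrsf17, Tnfrsf25, Tnfrsf9 and Tnfsf14 (15.2% beside 16.8%).

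Traf4, a TRAF adaptor chosen here after its values were seen, was at 4.83, 6.56, 5.55 and 5.79 in the rTF arrays and 5.96, 5.56, 5.81 and 5.40 in the rCPS1 arrays, so rTF replicates 1 and 2 held its lowest and highest value. Cd40lg, the CD40 ligand gene of T cells, also chosen after its values were seen, was at 4.48, 5.71, 4.49 and 5.95 with rTF and 4.73, 4.33, 5.31 and 4.78 with rCPS1. Like Tnfsf14, it was highest in rTF replicates 2 and 4.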
